A study of Rattus norvegicus with 6 samples.

Results

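The 7 genes Ptpru, Rprml, Rapgef5, Fam46b, Phyhd1, Drap1 and Paqr4 have little described function in heart muscle and were examined in neonatal rat ventricular myocytes (NRVMs) treated with serum of children with dilated cardiomyopathy (DCM) or of nonfailing (NF) children. They were taken by exact gene symbol from the deposited expression table, in which 7 of 7 symbols were present once among 3221 genes. The genes were selected on the contrast of DCM against NF serum in these same 6 libraries. Their levels and ratios are therefore given as a description, without a test, and the term strongly raised covers a range of mean ratios between 1.68-fold for Paqr4 and 10.2-fold for Ptpru.

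The RNA-Seq experiment comprised 3 libraries of DCM serum–treated NRVMs and 3 libraries of NF serum–treated NRVMs, all made from ventricular muscle cells of Sprague Dawley rats at postnatal day 2. The labels give serum at 1% for 72 hours in both groups, and the study's methods give another concentration and a range of times. Each library pooled 2 RNA preparations, and the labels assign the same serum patients to 2 of the 3 NF libraries. The table divides each DCM library by 1 NF library, which defines the 3 preparations called A, B and C here, with the shared NF patients in B and C. Values are FPKM, fragment counts scaled to transcript length and to the mapped fragments of the library, which allows levels of different genes to be compared per unit of length. The number of fragments behind a value is not in the table, and the counting error of low values was not estimated.

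The table is itself a selection, since all 3221 genes have an authors' q value under 0.10 and all 3 preparation ratios point the same way in each of the 3221. Ratios were above 1 for 252 genes and below 1 for 2969, and the median gene of the table had log2 ratios of -0.17 (preparation A), -0.40 (B) and -0.25 (C). With limma on log2(FPKM + 1) and preparation as a block, 201 genes (6.24%) were higher and 1984 (61.6%) were lower with DCM serum at a Benjamini-Hochberg adjusted p under 0.10. Without the block the same test called 3 genes higher and 1 lower, with 533 at an unadjusted p under 0.05. All genes of the table were already selected on this contrast in the same libraries. The adjusted p values therefore do not control false discoveries, and the calls serve as a description. Of 20 cardiomyocyte markers, 2 were in the table, the ventricular myosin light chain Myl2 and the myosin-binding protein Mybpc3, with summed levels of 6847 to 11588 FPKM in DCM libraries and 9603 to 11698 FPKM in NF libraries. Genes outside the selected table have no value here, so their absence is not a level of 0.

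The 7 genes act at different steps between the cell surface and the nucleus. Receptor-type tyrosine phosphatases remove phosphate from tyrosines at cell contacts, Rap GTPases relay signals to adhesion, and progestin and adipoQ receptors are multi-pass membrane proteins. NC2 holds TATA-binding protein on promoters in a repressed state, non-canonical poly(A) polymerases extend RNA tails, and 2-oxoglutarate dioxygenases use iron and oxygen to hydroxylate their substrates. Most of what is known of these genes comes from embryos, tumor cells and other tissues, and little of it from heart muscle.

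Ptpru encodes a receptor-type protein tyrosine phosphatase of the same subgroup as Ptprm, Ptprk and Ptprt, and in cultured cells it associates with β-catenin at cell contacts. Its level was 0.408, 0.730 and 1.81 FPKM with DCM serum, against 0.0347, 0.0821 and 0.179 FPKM with NF serum, in preparations A, B and C. Both groups followed the same order of preparations, A lowest and C highest, and every DCM value lay above every NF value. Within preparations the DCM to NF ratio was 11.8, 8.89 and 10.2, a mean log2 ratio of 3.35 ± 0.20 (SD, n = 3 preparations), which was rank 1 of 3221 genes.

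Ptpru also had the lowest mean NF level in the table, 0.0985 ± 0.0734 FPKM, while its DCM mean was 0.984 ± 0.736 FPKM (SD, n = 3 each), above 4.50% of the genes. The highest DCM library was 4.45 times the lowest and the highest NF library 5.15 times the lowest, against table medians of 1.44 in DCM libraries and 1.36 in NF libraries. These spreads lay above those of 98.4% of genes in DCM libraries and 99.3% in NF libraries. Thus Ptpru differed more between preparations than nearly all genes did within either serum, and 2 of its 3 DCM values and all 3 NF values were under 1 FPKM. Adding a pseudocount of 1 FPKM before the ratio reduced its mean log2 ratio to 0.79, so the fold depends on values close to the lower end of the table.

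The 250 bases before the annotated start of Ptpru are shown because they hold the sequence TGACGTCA, the palindromic cAMP response element, in capitals, centred at position -44 relative to the start. This sequence occurs in 1.59% of 33469 rat windows of the same length. The window lies on the minus strand of the GRCr8 assembly at chr5:149308834-149309083 and is written 5′ to 3′ along the gene, as given by RefSeq.
Ptpru: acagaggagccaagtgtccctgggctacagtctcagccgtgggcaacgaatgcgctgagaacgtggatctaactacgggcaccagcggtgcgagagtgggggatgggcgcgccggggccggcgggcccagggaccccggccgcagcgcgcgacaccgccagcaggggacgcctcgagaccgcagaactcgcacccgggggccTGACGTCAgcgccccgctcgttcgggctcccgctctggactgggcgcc

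Rprml encodes Reprimo-like, a relative of Reprimo, the p53-induced protein that arrests cells before mitosis in cultured cells. Its level was 2.42, 1.41 and 2.67 FPKM with DCM serum, against 0.617, 0.415 and 0.584 FPKM with NF serum, in preparations A, B and C. All 3 NF values were under 1 FPKM and all 3 DCM values above it, and preparation B was the lowest in both groups. The ratios were 3.93, 3.39 and 4.58, a mean log2 ratio of 1.98 ± 0.22 (SD, n = 3 preparations), and Rprml ranked 4 of 3221. Its mean of 2.17 ± 0.670 FPKM with DCM serum lay above 17.1% of the table, and its mean of 0.539 ± 0.108 FPKM with NF serum above 0.310%. As with Ptpru, the variance filter admits a gene with these NF values only through higher DCM values.

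The window before the start of Rprml is shown because it holds 5 copies of the GC box GGGCGG, in capitals, in 2 runs in which neighboring copies overlap. The upstream run has 3 copies centred at positions -108, -103 and -98 relative to the start, and the other has 2 copies at -75 and -70. The GC box was found in 30.5% of the 33469 windows. The window is on the plus strand of GRCr8 at chr10:89060030-89060279.
Rprml: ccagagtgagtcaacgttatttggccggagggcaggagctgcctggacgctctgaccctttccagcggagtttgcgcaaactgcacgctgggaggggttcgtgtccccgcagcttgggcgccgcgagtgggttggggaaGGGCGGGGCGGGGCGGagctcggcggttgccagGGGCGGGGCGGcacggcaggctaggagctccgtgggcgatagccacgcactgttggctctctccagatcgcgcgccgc

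Rapgef5 encodes a guanine nucleotide exchange factor that activates Rap GTPases, and in Xenopus embryos it is needed for β-catenin to enter the nucleus. Its level was 4.44, 5.81 and 5.60 FPKM with DCM serum, against 1.29, 2.03 and 2.04 FPKM with NF serum. Preparation A was the lowest in both groups, and the lowest DCM value was above the highest NF value. The ratios of 3.44, 2.87 and 2.75 gave a mean log2 ratio of 1.59 ± 0.17 (SD, n = 3 preparations), rank 10 of 3221. By level it lay above 40.9% of the table with DCM serum and above 8.17% with NF serum, the largest gap of this kind among the 7 genes.

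Fam46b, named Tent5b in the current rat annotation, encodes a non-canonical poly(A) polymerase that adds adenosines to RNA. Its level was 40.7, 50.1 and 38.3 FPKM with DCM serum, against 18.6, 20.7 and 16.9 FPKM with NF serum. Preparation B was the highest and C the lowest in both groups, and the groups did not overlap. The ratios of 2.18, 2.43 and 2.26 had an SD of 0.08 around a mean log2 ratio of 1.19, the smallest spread of the 7 genes together with Paqr4. The window before its start is shown because it holds 4 CCAAT boxes, in capitals, centred at -229.5, -161.5, -120.5 and -63.5 relative to the start, with 1 GC box at -187 and a TATA box (TATAA) at -39.5, also in capitals. At least 1 CCAAT was found in 34.0% and at least 1 TATAA in 24.0% of the 33469 windows. The share of windows with 4 CCAAT boxes was not counted. The window is on the plus strand of GRCr8 at chr5:150978988-150979237.
Fam46b: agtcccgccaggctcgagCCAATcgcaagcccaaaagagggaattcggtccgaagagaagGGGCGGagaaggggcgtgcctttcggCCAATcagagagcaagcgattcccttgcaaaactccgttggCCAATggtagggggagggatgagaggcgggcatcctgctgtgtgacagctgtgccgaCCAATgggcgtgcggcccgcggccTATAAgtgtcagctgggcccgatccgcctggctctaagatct

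Phyhd1 encodes an iron- and 2-oxoglutarate-dependent dioxygenase related to the peroxisomal phytanoyl-CoA hydroxylase Phyh, and its substrate in heart muscle is not established. Its level was 34.5, 31.6 and 28.4 FPKM with DCM serum, against 13.6, 13.0 and 14.9 FPKM with NF serum. Preparation C was the lowest of the DCM libraries and the highest of the NF libraries, so its ratio of 1.90 was below the 2.54 of preparation A and the 2.42 of preparation B. This was the only one of the 7 genes in which the 2 groups put the same preparation at opposite ends. In the RefSeq annotation Phyhd1 overlaps Lrrc8a, a volume-regulated anion channel subunit that had a mean log2 ratio of 0.35. The study's methods describe directional sequencing. Whether the FPKM step assigned fragments of the shared stretch by strand is not given in the sources used here.

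Drap1 encodes the α subunit of NC2, which with Dr1 represses transcription initiation and in mouse embryos restrains Nodal signaling. It had the highest level of the 7 genes, 94.6, 84.1 and 60.8 FPKM with DCM serum, against 47.2, 36.0 and 34.4 FPKM with NF serum. Preparation A was the highest and C the lowest in both groups, and the groups did not overlap. The ratios were 2.00, 2.34 and 1.77, with a mean log2 ratio of 1.02 ± 0.20 (SD, n = 3 preparations). The mean difference of 40.6 FPKM was the largest of the 7 genes, while 5 of the other 6 had a larger ratio.

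Paqr4 encodes a member of the progestin and adipoQ receptor family that binds CDK4 in tumor cells and has been linked to ceramide in mouse fat. Its level was 5.16, 5.18 and 6.15 FPKM with DCM serum, against 2.98, 3.28 and 3.53 FPKM with NF serum. Preparation C was the highest and A the lowest in both groups, and the groups did not overlap. Its ratios of 1.73, 1.58 and 1.74 gave the smallest mean log2 ratio of the 7 genes, 0.75 ± 0.08 (SD, n = 3 preparations), which was rank 50 among 3221. Paqr4 overlaps Pkmyt1 in the RefSeq annotation, a kinase that inhibits Cdk1 and is not in the table.

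**Figure D1:**
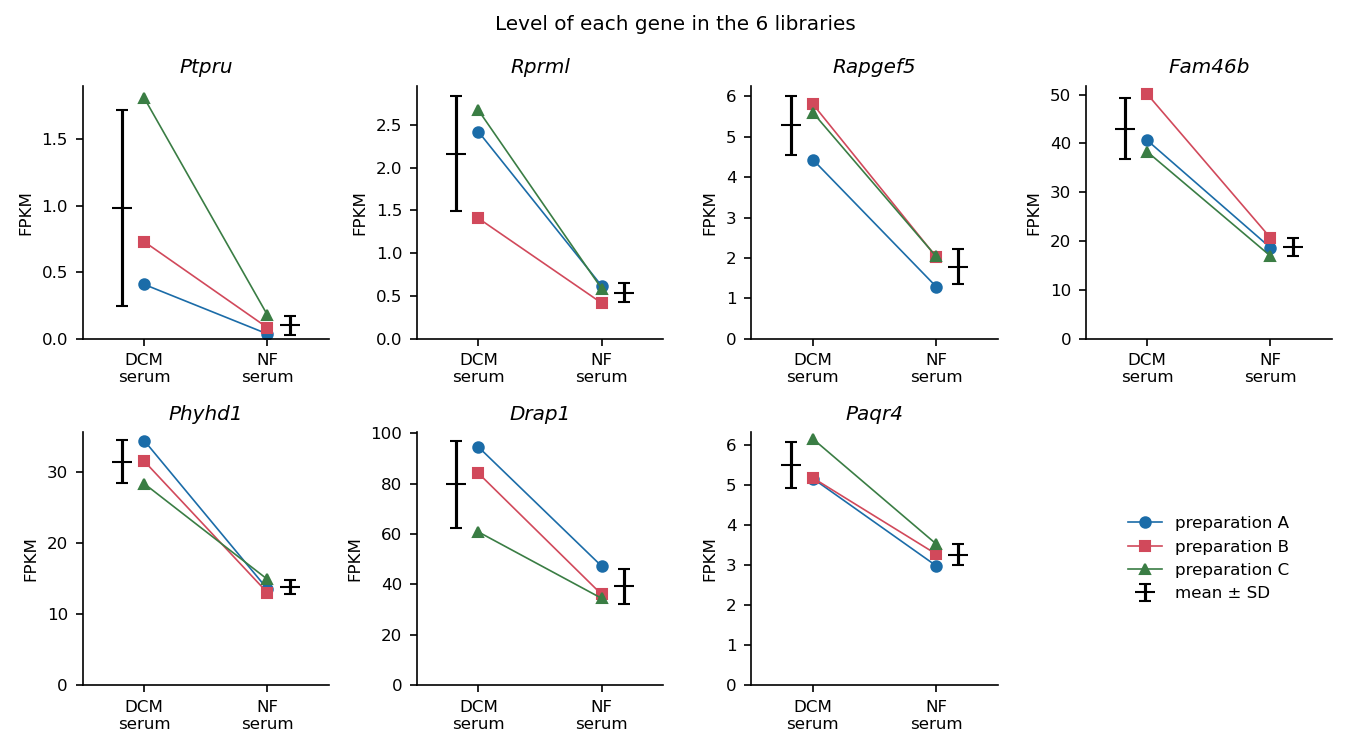
FPKM (vertical axis, from 0) of each of the 7 genes with DCM serum and NF serum, 1 panel per gene, with a line joining the 2 libraries of a preparation and bars for mean ± SD (n = 3 libraries). All 3 DCM points lie above all 3 NF points in every panel, Ptpru and Rprml lie at or under 2.67 FPKM, and the SD of Ptpru with DCM serum is 0.736 around a mean of 0.984 FPKM.

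In both sera the order of the levels was Drap1, Fam46b, Phyhd1, Paqr4, Rapgef5, Rprml and Ptpru from high to low by mean FPKM. With DCM serum, 2 neighbors in this order overlapped between libraries. The lowest value of Paqr4, 5.16 FPKM, was under the highest of Rapgef5, 5.81 FPKM, and the lowest of Rprml, 1.41 FPKM, was under the highest of Ptpru, 1.81 FPKM. With NF serum no neighbors overlapped. Drap1 lay above 96.0% of the table by DCM level and above 88.8% by NF level. Fam46b lay above 91.6% by DCM level and 74.6% by NF level, and Phyhd1 above 87.9% by DCM level and 65.8% by NF level.

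Every DCM value lay above every NF value for 7 of 7 genes, which 88 of 3221 genes (2.73%) of the table also showed. Since the genes were chosen on this contrast, nothing is read from that count. A ratio of at least 2 in all 3 preparations was found for 4 of the 7 genes (Ptpru, Rprml, Rapgef5 and Fam46b) and for 25 genes of the table. Phyhd1 and Drap1 missed it in preparation C, with ratios of 1.90 and 1.77, and Paqr4 missed it in every preparation.

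Since all 3 ratios of every gene of the table point the same way, the preparations are compared only by the size of the ratio. The ratio was highest in preparation A for 3 genes, in B for 2 and in C for 2, and it was lowest in A for 1 gene, in B for 3 and in C for 3. Measured from the median log2 ratio of the table in the same preparation, the genes stood further out, since that median was negative. The centred log2 ratios were 3.72, 3.55 and 3.59 for Ptpru in preparations A, B and C. They were 2.14, 2.16 and 2.44 for Rprml and 1.95, 1.92 and 1.71 for Rapgef5. They were 1.29, 1.68 and 1.43 for Fam46b, 1.51, 1.68 and 1.18 for Phyhd1, 1.17, 1.62 and 1.07 for Drap1, and 0.96, 1.06 and 1.05 for Paqr4. Preparation B, which had the lowest table median, was the highest on this scale for 4 of the 7 genes, Fam46b, Phyhd1, Drap1 and Paqr4.

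**Figure D2:**
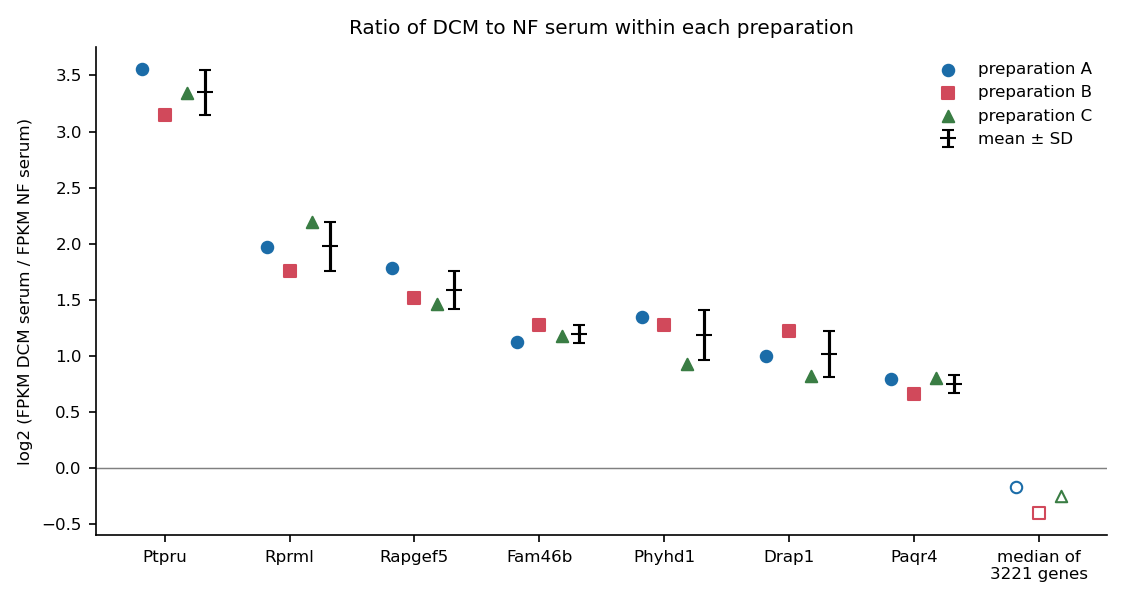
Log2 ratio of FPKM with DCM serum to FPKM with NF serum in preparations A, B and C for each gene, with mean ± SD (n = 3 preparations), and the median log2 ratio of the 3221 genes as open symbols at the right. The 7 genes run between 3.35 for Ptpru and 0.75 for Paqr4 by mean, and the 3 table medians lie between -0.40 and -0.17.

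**Figure D3:**
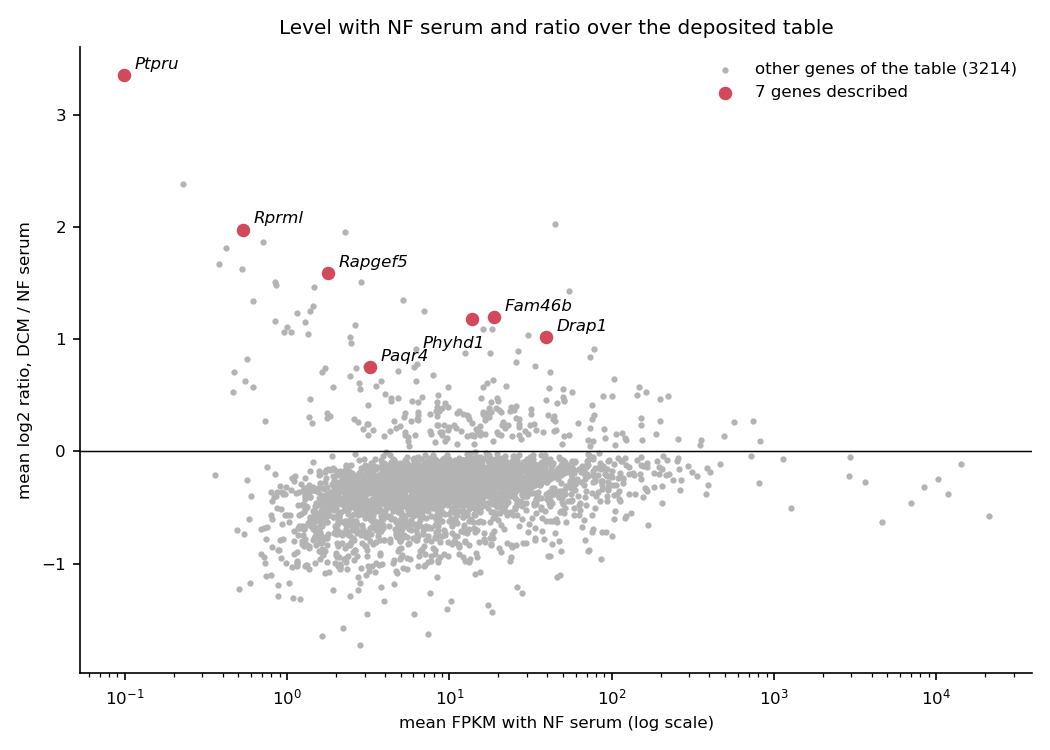
Mean log2 ratio, DCM over NF serum (vertical axis), against mean FPKM with NF serum (horizontal log axis) for the 3221 genes of the table, each point 1 gene. Ptpru stands at the left end with the lowest NF level and the highest ratio, Rprml and Rapgef5 lie at low levels, and Phyhd1, Fam46b and Drap1 lie between 13.8 and 39.2 FPKM. At the NF levels of Ptpru and Rprml, a gene passed the authors' variance filter only through higher DCM values.

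For each gene, the 2 other table genes with the most similar pattern were found by Pearson correlation of log2 FPKM over the 6 libraries. These correlations are descriptions over 6 points that share serum group and preparation, and a gene with a small ratio can reach a high value. Ptpru was closest to the basement membrane collagen Col4a2 (r = 0.995, mean log2 ratio 0.49) and to the solute carrier Slc43a3 (r = 0.988, mean log2 ratio 1.51). Rprml was closest to Polg, the mitochondrial DNA polymerase (r = 0.995, log2 ratio 0.43), and to Lox, which crosslinks collagen (r = 0.976, log2 ratio 0.88).

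Phyhd1 was closest to placental growth factor, Pgf (r = 0.996, log2 ratio 1.51), and to Syap1 (r = 0.995, log2 ratio 0.18). Rapgef5 was closest to the heparan sulfatase Sulf2 (r = 0.996, log2 ratio 0.42) and the transketolase Tkt (r = 0.993, log2 ratio 0.43). Fam46b was closest to the G protein subunit Gna12 (r = 0.995, log2 ratio 0.53) and to Dlgap1 (r = 0.989, log2 ratio 1.06). Drap1 was closest to the ribosomal protein gene Rps29 (r = 0.991, log2 ratio 0.27) and to Nt5dc3 (r = 0.990, log2 ratio 0.75), and Paqr4 to AABR06083652.1 (r = 0.988, log2 ratio 0.61) and to the copper transporter family member Slc31a2 (r = 0.984, log2 ratio 0.58). None of the 7 genes was among the 2 closest of another.

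Most relatives and pathway partners of the 7 genes had ratios below 1, as did most of the table. Of 59 relatives in the table, 3 rose and 32 fell with DCM serum in the paired limma test, and 24 did not pass. These are shares of 5.08% higher and 54.2% lower, against 6.24% and 61.6% over the whole table. Their median log2 ratio was -0.26, against -0.29 over the whole table, so as a group they lay near the table. When each preparation was centred on the table median, the same 3 were called higher and 6 were called lower, 30 of the 59 lay above that median, and 4 of the 32 that fell changed sign. Without the preparation block no relative was called (0 of 59, with 9 at an unadjusted p under 0.05, 3 higher and 6 lower). Of the 35 called relatives, 8 (Acer2, P4ha1, Bcar1, Ptprf, Ptprd, Ccnb1, Taf9b and Asph) were called in each of the 3 fits that left out 1 preparation, and the number called lower was 7 without preparation B and 8 without preparation C. The relatives below are given with paired limma adjusted p values over all 3221 genes, which were selected on the same contrast.

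**Figure D4:**
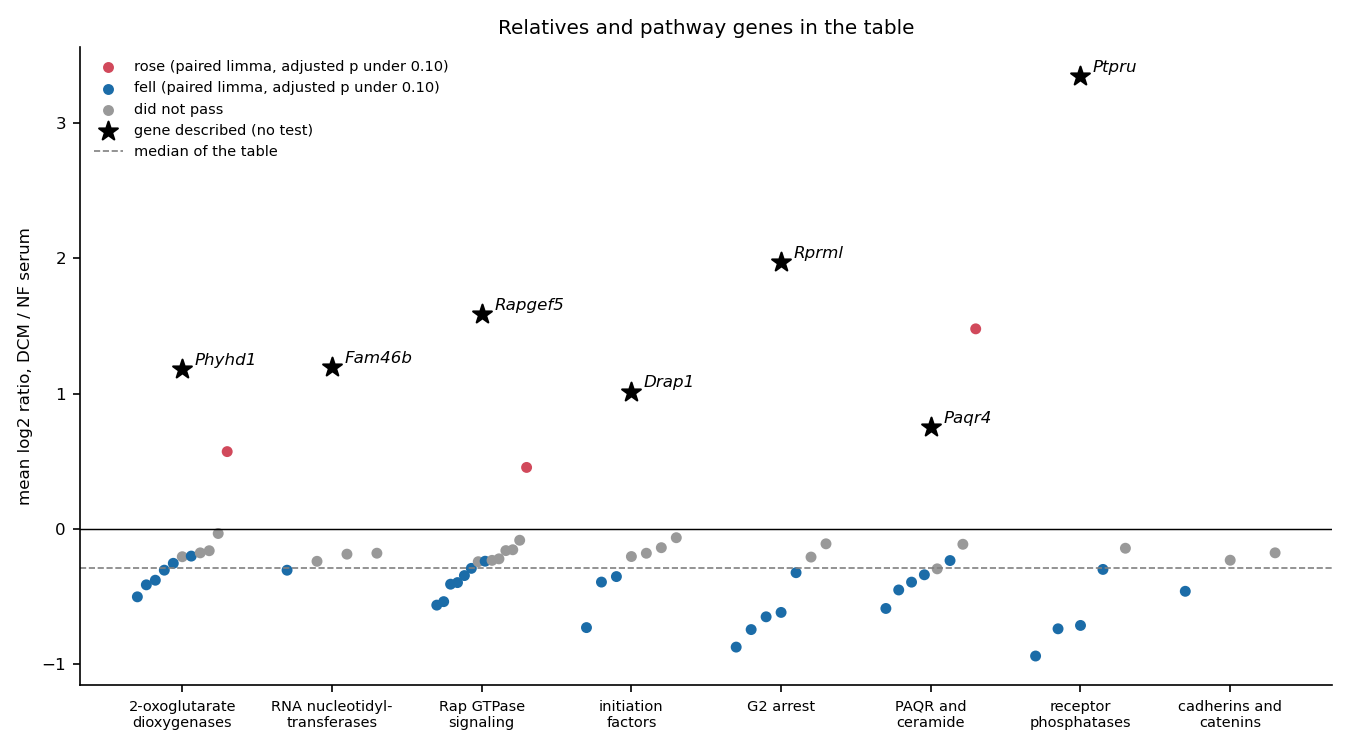
Mean log2 ratio, DCM over NF serum, for the relatives in the table, grouped by the list they belong to, colored by the paired limma call, with each of the 7 genes as a star in its own list and the table median as a dashed line. The stars stand at or above 0.75, 3 relatives rose, and most relatives lie below 0, on both sides of the dashed line at -0.29.

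Among receptor-type tyrosine phosphatases, the family of Ptpru, 5 of 20 were in the table, none rose and 4 fell. Ptprf, a leukocyte common antigen-related receptor found at cell contacts, had 10.1, 9.56 and 17.9 FPKM with DCM serum and 15.0, 28.7 and 28.3 FPKM with NF serum, with 1 DCM value inside the NF range. Its log2 ratio was -0.94 ± 0.56 (SD, n = 3 preparations, limma adjusted p = 0.0417), and it was also called lower after centring (limma adjusted p = 0.00326). Ptprd, a synaptic adhesion receptor in neurons, averaged 4.86 ± 1.10 FPKM with DCM serum and 8.25 ± 2.95 FPKM with NF serum (SD, n = 3 each) and fell by 0.72 on the log2 scale (limma adjusted p = 0.0324), again also after centring (limma adjusted p = 0.0107). Ptprm, the subgroup member closest to Ptpru that was in the table, fell by 0.30 (limma adjusted p = 0.0639) but lay only -0.03 from the table median after centring. Of the cadherins and catenins, 3 of 24 were in the table, and the desmosomal cadherin Dsg2 fell by 0.46 (limma adjusted p = 0.0488), a call lost after centring. β-Catenin, Ctnnb1, had a log2 ratio of -0.18 ± 0.11 and did not pass (limma adjusted p = 0.101).

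Of 37 genes of Rap signaling, the pathway of Rapgef5, 14 were in the table, 1 rose and 7 fell. Bcar1, the focal adhesion scaffold p130Cas that binds Crk, had 63.5, 51.8 and 46.9 FPKM with DCM serum and 45.5, 37.2 and 35.4 FPKM with NF serum. The groups of Bcar1 did not overlap, and its log2 ratio was 0.45 ± 0.04 (SD, n = 3 preparations, limma adjusted p = 0.0278). Rapgef3, the cAMP-activated exchange factor Epac1 of cardiomyocytes, averaged 1.42 ± 0.580 FPKM with DCM serum and 2.16 ± 1.12 FPKM with NF serum and fell by 0.54 (limma adjusted p = 0.0549). The GTPase Rap2a fell by 0.56 (limma adjusted p = 0.0471), the Rap GTPase-activating protein Sipa1l1 by 0.41 (limma adjusted p = 0.0549) and the effector Mllt4, afadin, by 0.40 (limma adjusted p = 0.0657). None of the 7 that fell was called lower after centring.

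Of 24 genes linked to Reprimo and p53-dependent arrest before mitosis, 7 were in the table, none rose and 5 fell, with a median log2 ratio of -0.62. The share that fell was 71.4%, against 61.6% over the whole table. Cyclin B1, Ccnb1, had 7.48, 3.54 and 6.10 FPKM with DCM serum and 9.38, 6.58 and 12.3 FPKM with NF serum, with overlap between groups but a lower DCM value in each preparation. It fell by 0.75 (limma adjusted p = 0.0371), and its partner kinase Cdk1 fell by 0.62 (limma adjusted p = 0.0410). The checkpoint kinase Chek1 fell by 0.88 (limma adjusted p = 0.0574) and the mitotic kinase Plk1 by 0.65 (limma adjusted p = 0.0451). After centring, Ccnb1, Cdk1 and Chek1 were still called lower and Plk1 was not (limma adjusted p = 0.106). Any relation of these levels to that of Rprml was not tested.

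Of 32 genes of the PAQR family and ceramide turnover, 8 were in the table, 1 rose and 5 fell. The alkaline ceramidase Acer2, which releases sphingosine from ceramide, had 1.27, 2.06 and 3.58 FPKM with DCM serum and 0.458, 0.638 and 1.48 FPKM with NF serum. Its groups overlapped by 1 value, preparation C was the highest in both, and its log2 ratio was 1.48 ± 0.21 (SD, n = 3 preparations, limma adjusted p = 0.0175), the largest among the 59 relatives. The family members Mmd and Paqr6 fell by 0.45 (limma adjusted p = 0.0409) and 0.39 (limma adjusted p = 0.0933), the ceramide synthase Cers4 fell by 0.59 (limma adjusted p = 0.0929), and Cdk4, the kinase that Paqr4 binds in tumor cells, fell by 0.34 (limma adjusted p = 0.0542). None of these was called lower after centring.

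Of 44 other 2-oxoglutarate dioxygenases, the enzyme class of Phyhd1, 11 were in the table, 1 rose and 6 fell. P4ha1, the catalytic subunit of collagen prolyl 4-hydroxylase, had 20.7, 22.2 and 29.5 FPKM with DCM serum and 15.3, 13.9 and 19.4 FPKM with NF serum, without overlap. It rose by 0.57 ± 0.12 on the log2 scale (SD, n = 3 preparations, limma adjusted p = 0.0262). Tmlhe, of carnitine synthesis, fell by 0.50 (limma adjusted p = 0.0477), Asph, the aspartyl β-hydroxylase, by 0.41 (limma adjusted p = 0.0380), Ogfod3 by 0.38 (limma adjusted p = 0.0548) and the DNA demethylation enzyme Tet2 by 0.31 (limma adjusted p = 0.0639). None of the 6 was called lower after centring.

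Of 37 transcription initiation factors around Drap1, 7 were in the table, none rose and 3 fell. Taf9b, a subunit of TFIID and related complexes, had 2.13, 3.14 and 3.18 FPKM with DCM serum and 3.48, 5.03 and 5.55 FPKM with NF serum, without overlap. It fell by 0.73 (limma adjusted p = 0.0223) and was also called after centring (limma adjusted p = 0.0161). The TFIIA subunit Gtf2a2 fell by 0.39 (limma adjusted p = 0.0323) and Taf11 by 0.35 (limma adjusted p = 0.0475), and both calls were lost after centring. The list of 12 RNA nucleotidyltransferases around Fam46b holds non-canonical enzymes and the canonical poly(A) polymerases Papola and Papolg. Of these 12, 4 were in the table (Papd4, Papd5, Papd7 and Papolg) and none rose. The 1 that fell was the non-canonical poly(A) polymerase Papd5 (log2 ratio -0.31 ± 0.27, limma adjusted p = 0.0871, call lost after centring).

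The 7 genes lie on 5 rat chromosomes. Ptpru and Fam46b are on chromosome 5 with 37 protein-coding genes between them in the RefSeq order, of which 9 were in the table and 3 had a ratio above 1. Rprml and Paqr4 are on chromosome 10, Phyhd1 on 3, Rapgef5 on 6 and Drap1 on 1. Of the 28 protein-coding neighbors, 2 on each side of each gene, 4 were in the table. Lrrc8a beside Phyhd1 and Bles03 beside Drap1 had log2 ratios of 0.35 and 0.28, and Dolk beside Phyhd1 and 9530082P21Rikl near Paqr4 had log2 ratios of -0.19 and -0.77. The other 24 neighbors are not in the table and have no ratio here.

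RefSeq windows of 250 bases before the start were found for 7 of the 7 genes, 8 windows in all, since Rapgef5 has 2 annotated starts and Fam46b was matched as Tent5b. The motifs searched on both strands, with overlapping copies counted separately, were the GC box GGGCGG, the CCAAT box CCAAT, the TATA box TATAA, the cAMP response element TGACGTCA and the glucocorticoid receptor hexamer AGAACA. GC boxes were found before Drap1 (5), Rprml (5), Paqr4 (3), Fam46b (1) and the upstream start of Rapgef5 (6), and none was found before Phyhd1, Ptpru or the other start of Rapgef5. CCAAT boxes were found before Fam46b (4), Paqr4 (2) and the upstream start of Rapgef5 (1), and AGAACA, present in 17.5% of all windows, was found before Paqr4 (1). TATAA was found before Fam46b (1) and, on the opposite strand, before Drap1 (1). No motif occurred in all 8 windows, and the window of Phyhd1 had none of the 5.

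The windows were rich in G and C, with 72.4% for Ptpru, 69.6% for Rprml, 66.0% for Drap1, 64.0% for Paqr4, 61.6% for Fam46b, 55.6% for Phyhd1, and 78.0% and 65.6% for the 2 starts of Rapgef5, against a median of 51.2% over all windows. A match describes letters in the reference and not binding in these cells, which was not measured. The cAMP response element, shown above in the window of Ptpru, was found in no other of the 8 windows. As the longest motif searched, it was also the only one present in under 10% of all windows.

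**Figure D5:**
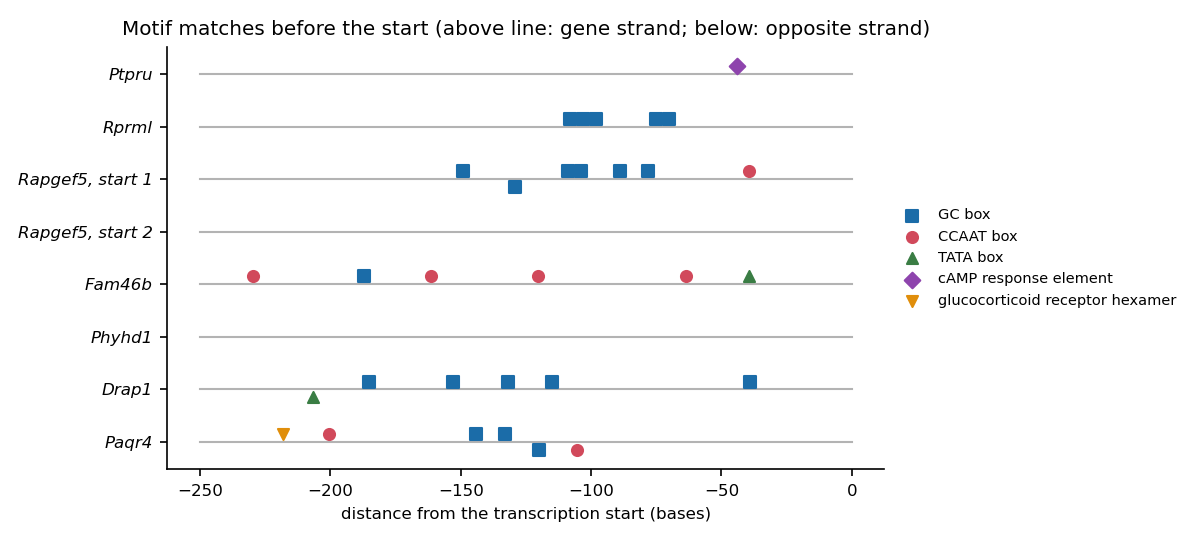
Positions of motif matches in the 8 windows, with distance from the transcription start in bases on the horizontal axis and 1 line per window, matches on the gene strand drawn above the line and those on the opposite strand below it. Fam46b has 4 CCAAT boxes and a TATA box, Rprml has 5 GC boxes in 2 runs, Ptpru has a single cAMP response element at -44, and Phyhd1 has no match.

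Markers of other cell types were set beside these values because primary NRVM cultures can hold other cardiac cells. In bulk RNA, more cells of a type and more RNA per cell cannot be told apart. Of 14 endothelial markers, 3 were in the table (Pecam1, Notch4 and Egfl7), all 3 rose in the paired limma test, and their summed level was 4.80 to 7.79 FPKM in DCM libraries and 2.94 to 4.74 FPKM in NF libraries. Notch4 averaged 0.228 FPKM with NF serum. As with Ptpru and Rprml, the variance filter admits a gene at this NF level only through higher DCM values, so the direction of Notch4 was fixed by the selection. Of 14 fibroblast markers, 4 were in the table and all 4 fell, with summed levels of 18.7 to 58.9 FPKM in DCM libraries and 28.9 to 95.9 FPKM in NF libraries, a range that overlaps. Over the whole table, 6.24% of genes were called higher and 61.6% lower in the same test. Markers outside the selected table have no value here. Of 12 smooth muscle and pericyte markers, 3 were in the table, of which Lmod1 rose and 2 fell, and of 11 Schwann cell and neuron markers 2 were in the table, of which 1 rose and 1 fell. No macrophage marker (of 12) and no erythroid marker (of 8) was in the table. After centring, the 3 endothelial markers were still called higher and 1 of the 4 fibroblast markers was still called lower, and without the block none of these was called. With 1 preparation left out, 2 of the 3 endothelial markers (Pecam1 and Notch4) and 1 of the 4 fibroblast markers (Col14a1) were called in each of the 3 fits. The summed endothelial level was highest in preparation A and lowest in B in both sera. The summed fibroblast level was highest in C and lowest in B in both sera. Drap1 was highest in A but lowest in C in both sera, and Rprml was lowest in B in both. Ptpru and Paqr4 were lowest in A and highest in C in both sera. Rapgef5 was lowest in A in both, Fam46b was highest in B and lowest in C in both, and Phyhd1 differed in order between the sera. The part of other cell types in the levels of the 7 genes was not tested.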

How the data were processed

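The study's authors sequenced mRNA of serum-treated NRVMs, used GSNAP for alignment to rat assembly Rnor_5.0, and obtained FPKM per gene from Cufflinks. The FPKM were deposited by the authors without further scaling between libraries. Genes with a variance under 0.1 were removed and genes with a q value under 0.10 kept, giving 1 deposited table of 3221 genes. The study's text reports fewer genes at this q threshold, with more of them higher than lower. Its other deposited columns hold the authors' signed fold changes (a score, negative where the ratio is below 1), 1 fold change ratio, and p-values and q-values. Only the headers of the fold changes, which tie each DCM library to 1 NF library, and the q-values, to check the selection, were used. Depth per library is not in the table, and the study's methods give it only as an average range of mapped reads.

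The 7 genes and the lists of relatives and markers were chosen with earlier results of these data known, and some lists hold genes the study names. Log2 ratios were taken within preparations without a pseudocount. Libraries were also compared with limma 3.58.1 in R 4.3.3 on log2(FPKM + 1) with preparation as a block (2 residual degrees of freedom), adjusted by Benjamini-Hochberg over all 3221 genes, for genes other than the 7. The fit was run on simulated data, with no outcome given here. Its error rate on a table already selected on the same contrast was not tested. The pairing comes from the table. Deviations from group means correlated at 0.771 to 0.877 for libraries of a preparation and at -0.697 to 0.186 for other pairs, which selection of genes with even ratios favors. Since NF libraries share patients and libraries are pools, p-values do not measure the spread between patients. With the block they measure how even the difference between sera was over these 3 preparations. Named genes were the 7, their 2 most similar genes, and up to 4 called relatives per list and direction. Alternatives covered pseudocounts, centring, a level filter, the threshold, robust eBayes, no block, and omission of each preparation. Tables were prepared in Python 3.11.15 with pandas 2.3.3 and numpy 2.4.6. Promoter windows are from RefSeq (GRCr8), a later assembly than that of the table, so no position was carried between them.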

Additional observations from a re-analysis of the deposited data

How the results depend on the processing

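The direction of all 7 ratios was the same under every alternative run. These alternatives could not reverse it, since all 3 ratios of each gene were above 1 and the table medians were negative. After centring on the preparation median the mean log2 ratios were 3.62 for Ptpru, 2.25 for Rprml, 1.86 for Rapgef5, 1.47 for Fam46b, 1.46 for Phyhd1, 1.29 for Drap1 and 1.02 for Paqr4. With a pseudocount of 1 FPKM they were 0.79 for Ptpru, 1.02 for Rprml, 1.18 for Rapgef5 and 0.61 for Paqr4, and with 0.1 FPKM 2.29 for Ptpru, since a constant shrinks ratios of low values. With 1 preparation omitted they ranged over 3.25 to 3.45 for Ptpru, 1.87 to 2.08 for Rprml, 1.49 to 1.65 for Rapgef5, 1.15 to 1.23 for Fam46b, 1.10 to 1.31 for Phyhd1, 0.91 to 1.11 for Drap1 and 0.73 to 0.80 for Paqr4. Without the replicate block limma called 3 genes of the table higher and 1 lower and 0 relatives in either direction, against 201, 1984, 3 and 32 with it. Centring left 344 lower genes (6 relatives), and an adjusted p under 0.05 left 715 (14 relatives). Omitting a preparation, which also removes residual degrees of freedom, gave 97 to 140 higher and 461 to 1164 lower genes, and 3 higher and 7 to 23 lower relatives, with 7 without preparation B and 8 without preparation C. Counts for single lists moved by over 1.5 times in 43 of 144 cases. The study's methods give mapped reads per sample only as an average range, and depth per library is not in the table. The counting error of the values of Ptpru and Rprml under 1 FPKM was not estimated.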
